A study of Mus musculus with 6 samples.

Results

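Receptor genes that steer dendritic cells (DCs) into, within and out of the thymus were followed in DCs sorted from the mouse thymus. The set held 8 genes, Ccr9, Ccr7, Ccr2, Cxcr4, Cxcr3, Cx3cr1, Selplg and S1pr1, taken by symbol from the 23420 gene symbols of the deposited count tables. All 8 passed the filter on low counts and were among the 8141 genes tested. RNA was sequenced from 6 libraries in 3 groups of 2, all from wild type mice. YG+ pDCs were plasmacytoid DCs (pDCs, sorted as low for CD11c and B220+) loaded with yellow-green fluorescent microspheres (YG). Their donors bore tumours of MC38, a colon carcinoma line, for 12 days before microspheres were injected into the tumour, and thymic cells were taken 2 days after that. PBS pDCs came through the same gate, without the microsphere selection, from mice given PBS. PBS Sirpa+ DCs, a conventional DC population sorted as high for CD11c and positive for Sirpa, came from PBS mice too. All 3 groups were labelled with a treatment time of 2 weeks. The labels do not say whether PBS mice carried tumours. The injected microspheres, the selection of microsphere-carrying cells and, if the PBS mice had none, the tumour set the YG+ pDCs apart from the PBS pDCs, and these cannot be told apart. Strain, age and sex are not given in the labels. Whether a group's libraries stand for separate animals or pools is not stated either, so the p-values cover no more than the spread of these samples, possibly a technical one.

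Chemokine receptors are membrane proteins that couple to inhibitory G proteins and turn a cell toward the source of a chemokine. CCR9 binds CCL25, a product of thymic epithelium, and serves the entry of pDCs and of T cell progenitors into the thymus. CCR7, which binds CCL19 and CCL21, draws mature DCs and developing T cells to the thymic medulla, CCR2 and CX3CR1 are best known from monocytes and other mononuclear phagocytes, and PSGL-1, encoded by Selplg, is the ligand with which leukocytes roll on P-selectin of the vessel wall. S1PR1, the receptor for sphingosine 1-phosphate (S1P), leads lymphocytes out of the thymus toward the blood.

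Gene counts totalled 177844 to 713966 per library, of which the 8 genes took 318 to 1462. Gene counts made up 0.842% to 3.36% of the uniquely placed reads, and counts of Tsix, the antisense partner of Xist, were 2.70 to 20.5 times those of Xist. No source used here gives the strand setting, so what part of a gene's count lay on its own strand cannot be told from the files. Of the 8 genes, Ccr9 and Cx3cr1 had exons of other genes on the opposite strand, over 19.0% and 1.73% of their exon length. Across genes, the Pearson r of the 2 libraries of a group was 0.934 for YG+ pDCs, 0.726 for PBS pDCs and 0.855 for PBS Sirpa+ DCs, and PBS pDC replicate 1 had the fewest counts. The 8 pDC markers, such as Siglech, summed to 3485 and 4804 CPM in YG+ pDCs, 5198 and 5033 in PBS pDCs, and 685 and 779.6 CPM in PBS Sirpa+ DCs. Markers of Sirpa+ conventional DCs were less clear: of 7 tested in PBS pDCs against PBS Sirpa+ DCs, Mgl2 fell, Clec10a rose and 5 did not pass. Sirpa itself was at 392 and 306 CPM in YG+ pDCs, 198 and 319 in PBS pDCs, and 575 and 748 CPM in PBS Sirpa+ DCs, with an adjusted p of 0.0754 for PBS pDCs against PBS Sirpa+ DCs. Of 6 type 1 conventional DC markers tested, 5 were higher in PBS Sirpa+ DCs than in PBS pDCs. Levels are CPM, counts scaled to the library total of tested genes after TMM (trimmed mean) normalisation. Group levels are given as mean ± SD of 2 libraries, and differences as log2 fold changes with the SE and the adjusted p of edgeR's quasi-likelihood test over all 8141 genes.

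**Figure D1:**
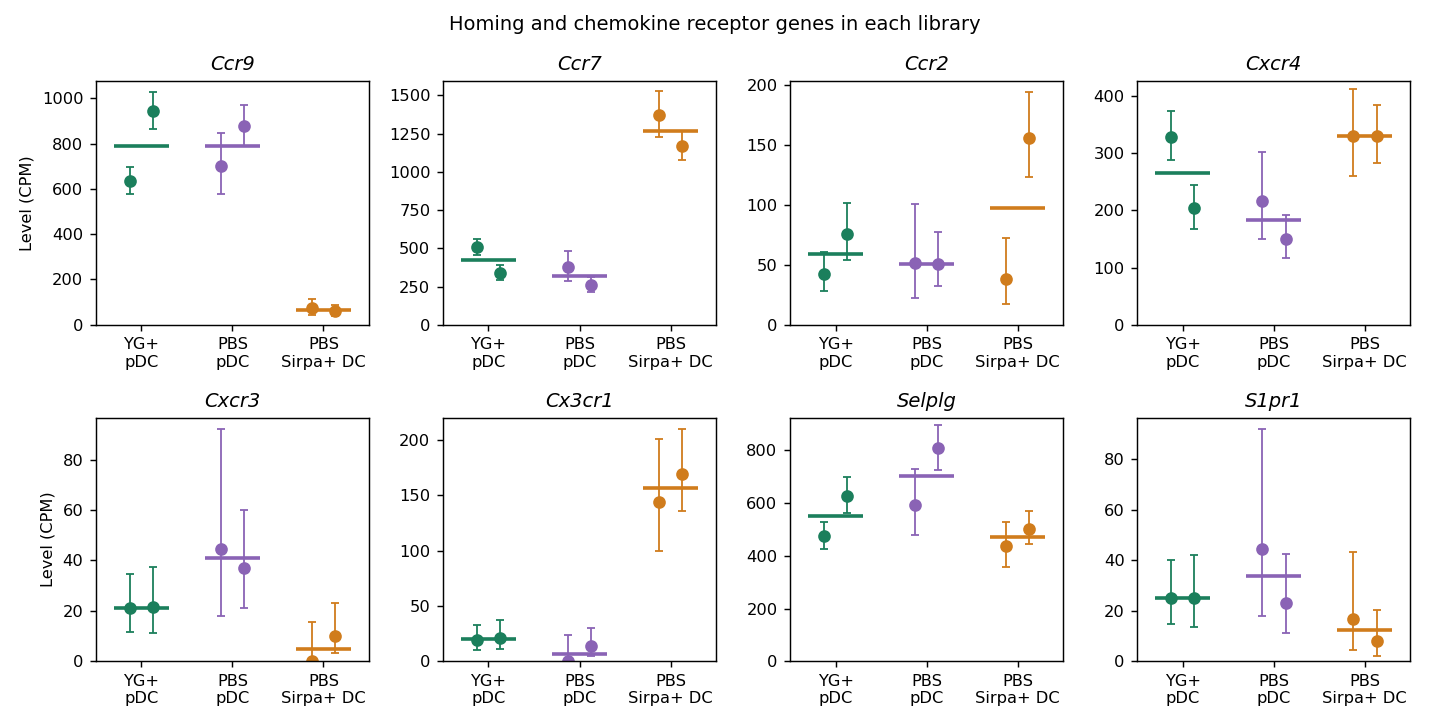
Level (CPM) of each of the 8 genes in the 6 libraries, by group. Points are libraries with 95% Poisson counting intervals and bars are group means; Ccr9 is high in all 4 pDC libraries, while Ccr7 and Cx3cr1 are highest in the PBS Sirpa+ DC libraries.

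The genes of the set that passed the test between PBS pDCs and PBS Sirpa+ DCs were Ccr9, high in pDCs, and Cx3cr1 and Ccr7, high in Sirpa+ DCs. Ccr9 was 12.1-fold higher in PBS pDCs than in PBS Sirpa+ DCs, Cx3cr1 was 15.9-fold lower, on 0 and 6 counts in the PBS pDC libraries, and Ccr7 was 4.04-fold lower. Of the 8 genes, 1 rose and 2 fell in PBS pDCs against PBS Sirpa+ DCs, while the test called 11.4% of all genes tested, 4.54% higher and 6.89% lower. In YG+ pDCs against PBS Sirpa+ DCs, Ccr9 rose and Cx3cr1 fell, where 7.16% of all genes were called, 3.07% higher and 4.09% lower. In YG+ pDCs against PBS pDCs 0 of the 8 genes passed, as did 0% of all genes, and the smallest adjusted p among the 8 was 0.622 for Cx3cr1. In that comparison edgeR called 0 genes, 929 genes (11.4%) had an unadjusted p under 0.05 and 0 of the 8 genes did. DESeq2 called 111 genes and limma-voom 0, with 0 of the 8 in either. The comparisons share libraries, so their results are not independent of each other. In bulk RNA, fewer cells of a type and less RNA per cell cannot be told apart.

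Ccr9 lies on chromosome 9 (ENSMUSG00000029530.16, 123678439 to 123784330, plus strand, GRCm38). It had 636 and 943 CPM in YG+ pDCs, 702 and 877 in PBS pDCs, and 71.9 and 59.8 CPM in PBS Sirpa+ DCs. The 4 pDC libraries lay far above both Sirpa+ DC libraries, and the PBS pDC values lay between the 2 YG+ pDC values. The log2 fold change was 3.59 ± 0.48 (SE; adjusted p = 0.00131) in PBS pDCs over PBS Sirpa+ DCs. In YG+ pDCs over PBS Sirpa+ DCs it was 3.59 ± 0.48 (adjusted p = 0.00246), and without PBS Sirpa+ DC replicate 2 it was 3.45 with an adjusted p of 0.0554. YG+ pDCs and PBS pDCs differed by -0.0032 ± 0.41, a difference with a 95% interval from -0.91 to 0.91 and an adjusted p of 0.999. Thymocytes carry CCR9 as well. The 10 T cell and thymocyte markers summed to 562 and 703 CPM in YG+ pDCs, 555 and 618 in PBS pDCs, and 165 and 161 CPM in PBS Sirpa+ DCs. Cd4, Cd8a and Cd8b1 made up most of these sums in the pDC libraries. Cd8a, Cd8b1 and Lck rose in PBS pDCs against PBS Sirpa+ DCs and Cd4 did not pass. Cd3d, Rag1 and Bcl11b were too low to test, and Cd3d was highest in PBS Sirpa+ DC replicate 1 (25.4 CPM). Cd3g and Ptcra had no count in any library and Cd3e none in either PBS group, and the part of these cells in the Ccr9 level was not tested.

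The start of Ccr9 is shown because it is the gene of the set with the clearest pDC pattern, and that of Cxcr4 beside it because Cxcr4 passed no comparison. Each line gives the 250 bases before the RefSeq transcription start (GRCm38.p6), 5′ to 3′ on the gene's strand. Capitals mark the E-box CANNTG, the motif class of E proteins such as TCF4, the transcription factor that maintains pDCs, which reads the same on both strands.
Ccr9, chr9:123766961-123767210, plus strand: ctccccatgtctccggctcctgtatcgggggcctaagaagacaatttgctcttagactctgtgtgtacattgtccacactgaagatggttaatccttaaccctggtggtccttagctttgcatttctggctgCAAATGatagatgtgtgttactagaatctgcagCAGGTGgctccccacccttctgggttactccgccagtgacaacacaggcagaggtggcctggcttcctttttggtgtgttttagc
Cxcr4, chr1:128592300-128592549, minus strand: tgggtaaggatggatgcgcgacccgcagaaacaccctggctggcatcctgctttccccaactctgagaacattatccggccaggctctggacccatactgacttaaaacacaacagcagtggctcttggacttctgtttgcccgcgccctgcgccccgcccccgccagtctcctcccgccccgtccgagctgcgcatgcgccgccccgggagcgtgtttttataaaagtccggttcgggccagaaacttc
The Ccr9 window held 2 E-boxes, CAAATG starting 118 bases and CAGGTG starting 85 bases before the start, and the Cxcr4 window held 0. A count of 2 was not particular to Ccr9. The window of Cx3cr1, which was low in pDCs, also held 2, and those of Ccr2 and Cxcr3 held 1 each. Ccr2 and Cxcr3 passed no comparison in the reported fit either, and only Cxcr4 had a matched window without an E-box. Of 32851 promoter windows of this length in the RefSeq table, 66.2% held at least 1, so the match is a description of the letters only. The Ccr9 window lies within an intron of longer Ccr9 transcripts, and its last 42 bases are in an exon of a non-coding Ccr9 transcript in GENCODE M21. By the same annotation, exons of coding Cx3cr1 transcripts cover all 250 bases of the Cx3cr1 window. Such exons cover 233 bases of the Ccr2 window, 122 of the Cxcr3 window and 0 of the Cxcr4 window. The windows are thus unlike stretches, and their E-box counts do not compare like with like. GC content was 50.4% in the Ccr9 window and 61.2% in the Cxcr4 window. RefSeq promoter entries matched 5 of the 8 genes.

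Cx3cr1, on chromosome 9 (ENSMUSG00000052336.7, 119901616 to 120069879, minus strand), encodes the receptor for fractalkine. It had 19.7 and 21.5 CPM in YG+ pDCs, 0 and 13.9 in PBS pDCs, and 144 and 169 CPM in PBS Sirpa+ DCs. Both Sirpa+ DC libraries stood above all pDC libraries, and both YG+ pDC libraries stood above both PBS pDC libraries, as did the libraries of 26.5% of all genes. The 0 in PBS pDC replicate 1 allowed up to 19.1 CPM at 3 counts, close to the YG+ pDC values. Its 95% Poisson counting interval reached 23.5 CPM, above both of them. The log2 fold change was -3.99 ± 0.66 in PBS pDCs over PBS Sirpa+ DCs (adjusted p = 0.00391), and in YG+ pDCs over PBS Sirpa+ DCs it was -2.92 ± 0.53 (adjusted p = 0.00932). This second call was lost without either of the YG+ pDC libraries (adjusted p = 0.0565 without replicate 1 and 0.0573 without replicate 2) and without either of the Sirpa+ DC libraries (0.0701 without replicate 1 and 0.0865 without replicate 2), at log2 fold changes of -3.06 to -2.79. In YG+ pDCs over PBS pDCs the value was 1.07 ± 0.74 (adjusted p = 0.622), with a 95% interval from -0.56 to 2.70. Leaving out PBS pDC replicate 2 leaves that group at 0 counts, and the fitted values, which then depend on the prior count, were -9.11 in PBS pDCs over PBS Sirpa+ DCs and 6.17 in YG+ pDCs over PBS pDCs. Without PBS pDC replicate 1 they were -3.48 and 0.55, and the second missed the threshold in both cases (adjusted p = 0.105 without replicate 2 and 0.903 without replicate 1). As a sum, monocyte and macrophage markers had the same order of group means as Cx3cr1. The sums of Sirpa+ conventional DC, type 1 conventional DC and mature DC markers had this order too. It was thus not particular to monocytes and macrophages. Within each pDC group the library with the higher monocyte and macrophage sum had the lower Cx3cr1 level. These Cx3cr1 orders were not resolved, because the counting intervals overlapped. They were 10.8 to 33.0 and 11.1 to 37.5 CPM in YG+ pDCs, and 0 to 23.5 and 5.10 to 30.2 CPM in PBS pDCs. The 10 monocyte and macrophage genes summed to 1698 and 629.8 CPM in YG+ pDCs, 274 and 97.2 in PBS pDCs, and 3880 and 6234 CPM in PBS Sirpa+ DCs. Fcgr1 and Mertk had no count in PBS pDCs, and the part of such cells in the Cx3cr1 level was not tested.

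Ccr7 lies on chromosome 11 (ENSMUSG00000037944.8, 99144196 to 99155077, minus strand), with no annotated gene overlapping it. It had 507 and 336 CPM in YG+ pDCs, 376 and 257 in PBS pDCs, and 1371 and 1168 CPM in PBS Sirpa+ DCs. Every pDC library was below both Sirpa+ DC libraries, and the YG+ pDC and PBS pDC values overlapped. The log2 fold change was -2.02 ± 0.45 in PBS pDCs over PBS Sirpa+ DCs (adjusted p = 0.0162), and it stayed near that size but lost its call without PBS Sirpa+ DC replicate 1 (-1.90, adjusted p = 0.0994) and without replicate 2 (-2.08, adjusted p = 0.0971). In YG+ pDCs over PBS Sirpa+ DCs it was -1.59 ± 0.44, just outside the threshold (adjusted p = 0.0520). In 10 of 16 alternative analyses, DESeq2 and limma-voom among them, that value was called, and in 6 it was not. The 16 include the fits with a library left out, and the log2 fold change ran from -1.94 to -1.33 over them. YG+ pDCs over PBS pDCs gave 0.43 ± 0.44 (adjusted p = 0.757), with a 95% interval from -0.53 to 1.39. As a sum, markers of mature DCs, the DCs best known for CCR7, had the order of the Ccr7 group means, though not every marker did. These 9 genes, among them Fscn1 and Ccl22, summed to 1464 and 1186 CPM in YG+ pDCs, 415 and 442 in PBS pDCs, and 5192 and 4071 CPM in PBS Sirpa+ DCs, and their part in the Ccr7 level was not tested. The sums of Sirpa+ conventional DC, type 1 conventional DC, and monocyte and macrophage markers had the same order of group means.

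Within a library, the balance of Ccr9 and Ccr7 does not depend on scaling, but shares of counts do depend on gene length. The mean RefSeq mRNA length was 4.0425 kb for Ccr9 and 1.978 kb for Ccr7. Per kilobase of mRNA, Ccr9 and Ccr7 were at 195 and 213 CPM in YG+ pDCs, and at 195 and 160 in PBS pDCs. By the exon length of all annotated transcripts, Ccr7 was above Ccr9 in every pDC library. Ccr9 took 55.7% (95% Clopper-Pearson interval 52.2% to 59.1%) and 73.7% (70.3% to 76.9%) of the counts of both genes in the YG+ pDC libraries. In PBS pDCs it took 65.1% (57.4% to 72.2%) and 77.3% (73.4% to 81.0%), and in PBS Sirpa+ DCs 4.99% (2.93% to 7.86%) and 4.87% (3.31% to 6.88%). These intervals cover counting error only. The PBS Sirpa+ DC shares differed by less than counting error, whereas the 2 libraries of each pDC group differed from each other by more than their intervals. The pDC groups overlapped each other and neither overlapped the Sirpa+ DCs.

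Ccr2, the receptor for CCL2 that takes part in the entry of Sirpa+ DCs into the thymus, lies on chromosome 9 (124101950 to 124113557, plus strand). It had 42.1 and 75.2 CPM in YG+ pDCs, 51.0 and 50.9 in PBS pDCs, and 38.1 and 156 CPM in PBS Sirpa+ DCs. The highest and the lowest value of all 6 libraries were both from Sirpa+ DCs, with 78 and 9 counts, so all 3 groups overlapped. The log2 fold change was -0.997 ± 0.63 in PBS pDCs over PBS Sirpa+ DCs (adjusted p = 0.384), and without PBS Sirpa+ DC replicate 2 it was 0.45. In YG+ pDCs over PBS Sirpa+ DCs it was -0.81 ± 0.58 (adjusted p = 0.444), and 0.61 without that library. YG+ pDCs over PBS pDCs gave 0.19 ± 0.63 (adjusted p = 0.940), and -0.24 without YG+ pDC replicate 2. Other chemokine receptor genes are close to Ccr2 in sequence, so its counts are uncertain where reads fit more than 1 gene.

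Cxcr4, the receptor for CXCL12, on chromosome 1 (128588199 to 128592293, minus strand), had 329 and 204 CPM in YG+ pDCs, 217 and 150 in PBS pDCs, and 330 and 331 CPM in PBS Sirpa+ DCs. The Sirpa+ DC libraries were the closest pair, above both PBS pDC libraries and just above YG+ pDC replicate 1. None of the differences passed, with log2 fold changes of -0.87 ± 0.44 in PBS pDCs over PBS Sirpa+ DCs (adjusted p = 0.259), -0.31 ± 0.42 in YG+ pDCs over PBS Sirpa+ DCs (adjusted p = 0.707) and 0.56 ± 0.43 in YG+ pDCs over PBS pDCs (adjusted p = 0.671).

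Cxcr3, the receptor for the interferon-induced chemokines CXCL9 and CXCL10, lies on chromosome X (101731535 to 101734269, minus strand). It had 21.1 and 21.5 CPM in YG+ pDCs, 44.6 and 37.0 in PBS pDCs, and 0 and 9.97 CPM in PBS Sirpa+ DCs, from 0 to 16 counts per library. The values of the 3 groups did not overlap, with PBS pDCs on top and Sirpa+ DCs at the bottom, but the counting intervals of neighbouring groups did. PBS pDCs over PBS Sirpa+ DCs gave a log2 fold change of 2.59 ± 0.86, with an unadjusted p of 0.0116 in the edgeR test and an adjusted p of 0.0794, and adjusted p = 0.0435 with no filter on low counts. The value was 1.69 ± 0.85 in YG+ pDCs over PBS Sirpa+ DCs (adjusted p = 0.270) and -0.90 ± 0.69 in YG+ pDCs over PBS pDCs (adjusted p = 0.667), whose 95% interval ran from -2.42 to 0.61. With a library left out Cxcr3 ran from 1.97 to 7.11 in PBS pDCs and from 1.04 to 6.17 in YG+ pDCs over PBS Sirpa+ DCs, with no call, the highest values being those without PBS Sirpa+ DC replicate 2, where the remaining library had 0 counts and the fit depends on the prior count, and the lowest those without replicate 1.

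Selplg, on chromosome 5 (113818536 to 113832644, minus strand), was abundant in all groups, with 473 and 626 CPM in YG+ pDCs, 593 and 805 in PBS pDCs, and 436 and 502 CPM in PBS Sirpa+ DCs. PBS pDCs lay above Sirpa+ DCs without overlap, and YG+ pDCs overlapped both. Its log2 fold change was 0.58 ± 0.42 in PBS pDCs over PBS Sirpa+ DCs (adjusted p = 0.455), 0.23 ± 0.41 in YG+ pDCs over PBS Sirpa+ DCs (adjusted p = 0.788) and -0.35 ± 0.41 in YG+ pDCs over PBS pDCs (adjusted p = 0.793). The 95% intervals of these differences were -0.34 to 1.49, -0.68 to 1.13 and -1.26 to 0.55.

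S1pr1, on chromosome 3 (115710433 to 115715072, minus strand), was low, with 4 to 18 counts per library. It had 25.3 and 25.1 CPM in YG+ pDCs, 44.6 and 23.1 in PBS pDCs, and 16.9 and 7.97 CPM in PBS Sirpa+ DCs. Each pDC library lay above both Sirpa+ DC libraries, by a margin within the counting intervals. The log2 fold change was 1.44 ± 0.76 in PBS pDCs over PBS Sirpa+ DCs (adjusted p = 0.282), 1.13 ± 0.71 in YG+ pDCs over PBS Sirpa+ DCs (adjusted p = 0.379) and -0.31 ± 0.64 in YG+ pDCs over PBS pDCs (adjusted p = 0.896).

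**Figure D2:**
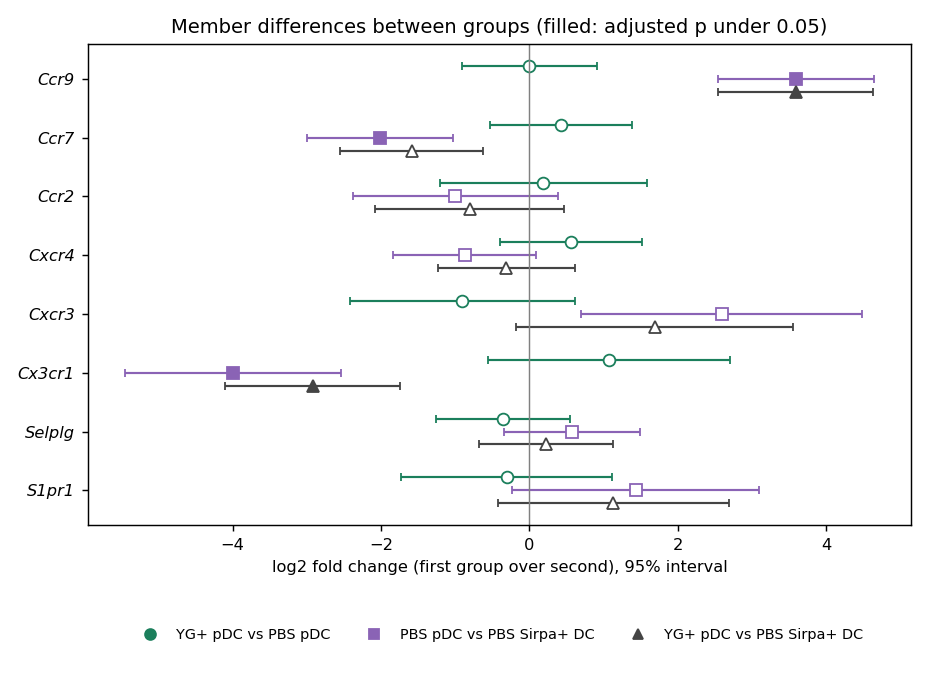
log2 fold change of each gene (first-named group over the second) with its 95% interval in the 3 comparisons. Filled symbols passed an adjusted p of 0.05; all intervals of YG+ pDCs over PBS pDCs cross 0, and Ccr9 and Cx3cr1 stand apart in both comparisons with PBS Sirpa+ DCs.

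Counted over the set, 1 gene was higher and 1 lower without overlap in YG+ pDCs against PBS pDCs (Cx3cr1 and Cxcr3), where 45.8% of all genes did not overlap, 26.5% higher and 19.3% lower. In PBS pDCs against PBS Sirpa+ DCs, 4 genes were higher and 3 lower without overlap, where 47.1% of all genes did not overlap (22.9% higher, 24.2% lower). In YG+ pDCs against PBS Sirpa+ DCs 3 were higher and 3 lower, against 62% of all genes (32.8% higher, 29.1% lower). The median log2 fold change over the 8 genes was 0.09 in YG+ pDCs over PBS pDCs, -0.15 in PBS pDCs over PBS Sirpa+ DCs and -0.04 in YG+ pDCs over PBS Sirpa+ DCs. Over all genes tested the medians were 0.08, 0.08 and 0.04 in the same comparisons.

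To set the genes side by side, levels were divided by the mean length of each gene's RefSeq mRNAs, which ranged from 1.731 kb for Cxcr3 to 4.0425 kb for Ccr9. On this scale of CPM per kilobase, Selplg was at 296 ± 58.3 in YG+ pDCs, followed by Ccr7 at 213 ± 61.0, Ccr9 at 195 ± 53.6 and Cxcr4 at 148 ± 48.9, and the libraries of each pair of neighbours in this order overlapped. The levels per kilobase in PBS pDCs were 377 ± 80.8 for Selplg, 195 ± 30.7 for Ccr9, 160.05 ± 42.7 for Ccr7 and 102 ± 26.0 for Cxcr4, where only the libraries of Ccr9 and Ccr7 overlapped. In PBS Sirpa+ DCs the level per kilobase was 642 ± 72.4 for Ccr7, 253 ± 25.4 for Selplg and 183 ± 0.357 for Cxcr4, ahead of Cx3cr1 at 41.7 ± 4.82, with no overlap among these 4. The remaining levels per kilobase were 19.6 for Ccr2, 12.3 for Cxcr3, 8.26 for S1pr1 and 5.48 for Cx3cr1 in YG+ pDCs. In PBS pDCs they were 23.6 for Cxcr3, 17.0 for Ccr2, 11.1 for S1pr1 and 1.85 for Cx3cr1, and in PBS Sirpa+ DCs 32.3 for Ccr2, 16.3 for Ccr9, 4.09 for S1pr1 and 2.88 for Cxcr3. Ccr7 thus held 28.8% and 18.8% of the summed level per kilobase of the 8 genes in YG+ pDCs, 22.1% and 14.2% in PBS pDCs, and 58.5% and 50.7% in PBS Sirpa+ DCs. Ccr9 held 17.7% and 25.8% in YG+ pDCs, 20.2% and 23.7% in PBS pDCs, and 1.501% and 1.27% in PBS Sirpa+ DCs. The order of the genes turned with the length used. By the exon length of all annotated transcripts, Selplg held 17.3% and 26.3% of the summed level in YG+ pDCs, below Ccr7 at 39.9% and 30.5%. In PBS Sirpa+ DCs Selplg held 9.93% and 12.2%, below Cxcr4 at 17.8% and 18.9%. With this length, 10.26 kb for Ccr9, the shares of Ccr9 were 9.66% and 16.5% in YG+ pDCs, 12.1% and 16.2% in PBS pDCs, and 0.682% and 0.603% in PBS Sirpa+ DCs.

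**Figure D3:**
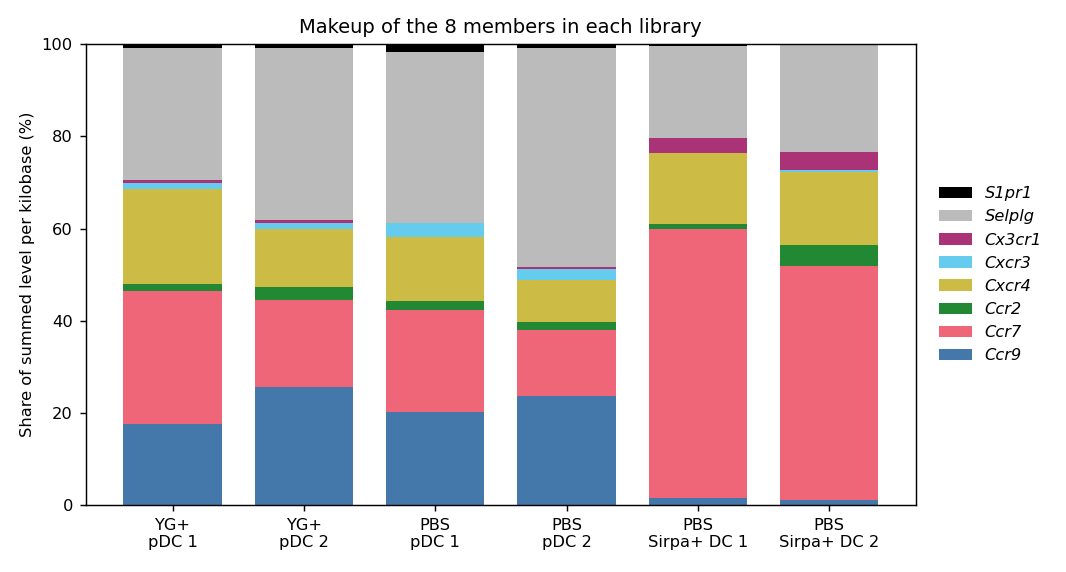
Share (%) of each of the 8 genes in their summed level per kilobase of mRNA, in each library. The blue Ccr9 segment is wide in the 4 pDC libraries and nearly absent in PBS Sirpa+ DCs, where Ccr7 takes 58.5% and 50.7%.

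Other chemokine receptors were read from a list of 18, of which 8 were abundant enough to test. In PBS pDCs against PBS Sirpa+ DCs 1 rose, 3 fell and 4 did not pass, where 4.54% of all genes tested rose and 6.89% fell. In YG+ pDCs against PBS Sirpa+ DCs 1 rose and 2 fell, where 3.07% of all genes rose and 4.09% fell. In YG+ pDCs against PBS pDCs 0 passed, as did 0% of all genes. Ccr6, the receptor for CCL20, rose in both pDC groups, with 94.1 and 82.3 CPM in YG+ pDCs, 19.1 and 81.0 in PBS pDCs, and 4.23 and 9.97 CPM in PBS Sirpa+ DCs (log2 fold change 2.79, adjusted p = 0.0363 in PBS pDCs over PBS Sirpa+ DCs, and 1.18 with adjusted p = 0.475 without PBS pDC replicate 2). Xcr1, the receptor that marks type 1 conventional DCs, fell in both, with 15.5 and 8.95 CPM in YG+ pDCs, 25.5 and 2.31 in PBS pDCs, and 84.6 and 69.8 CPM in PBS Sirpa+ DCs. Cmklr1, the chemerin receptor, also fell in both, and Ccrl2, which binds chemerin without signalling, fell in PBS pDCs (log2 fold change -3.52, adjusted p = 0.0123). Cxcr6, among the most counted genes of the list, passed no comparison, with 73.0 and 102 CPM in YG+ pDCs, against 389 and 106 in PBS pDCs. None of 14 ligand genes of the 8 receptors of the set passed the filter, and Cxcl10 and Cx3cl1 had the most counts, 43 and 32 over all 6 libraries. Ccl25, Ccl19, Ccl21a and Cxcl12 are named after their values were seen. Ccl25 had 2 counts in all 6 libraries together, and Ccl19, Ccl21a and Cxcl12 had 0 in each.

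In the list of selectins and enzymes that modify PSGL-1, 6 of 13 genes were tested. Against PBS Sirpa+ DCs, 2 rose in PBS pDCs and 1 in YG+ pDCs, where 4.54% and 3.07% of all genes tested rose. In YG+ pDCs against PBS pDCs 0 passed. St3gal6, a sialyltransferase gene, rose in PBS pDCs to 57.4 and 27.8 CPM, against 0 and 1.99 CPM in PBS Sirpa+ DCs (adjusted p = 0.0207), and 26.0% of its exon length lies under an exon of the opposite strand. B4galt1, a galactosyltransferase gene with the second most counts, did not pass. B cell markers summed to 705 and 628 CPM in YG+ pDCs, 785 and 731 in PBS pDCs, and 38.1 and 19.9 CPM in PBS Sirpa+ DCs, with Ms4a1 and Pax5 at 0 in the last group, and their part in the levels of these lists was not tested.

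Among 14 genes of the S1P pathway and of S1pr1 regulation 9 were tested. Against PBS Sirpa+ DCs, 3 rose in PBS pDCs and 2 in YG+ pDCs, with 0 falling. Of all genes tested, 4.54% rose and 6.89% fell in PBS pDCs, and 3.07% rose and 4.09% fell in YG+ pDCs. Cd69, whose product holds S1PR1 inside the cell, had 268 and 359.7 CPM in YG+ pDCs, 185 and 211 in PBS pDCs, and 16.9 and 23.9 CPM in PBS Sirpa+ DCs (log2 fold change 3.21, adjusted p = 0.00257 in PBS pDCs, and 3.87, adjusted p = 0.00188 in YG+ pDCs, over PBS Sirpa+ DCs). Klf2, the transcription factor that induces S1pr1 in T cells, rose in both, with 211 and 259 CPM in YG+ pDCs, 179 and 176 in PBS pDCs, and 59.2 and 15.9 CPM in PBS Sirpa+ DCs. Sgpp2, an S1P phosphatase gene, had 25.3 and 25.1 CPM in YG+ pDCs, 185 and 74.0 in PBS pDCs, and 33.9 and 12.0 CPM in PBS Sirpa+ DCs, and rose in PBS pDCs against PBS Sirpa+ DCs (adjusted p = 0.0292). Sgpl1, the S1P lyase and the most counted gene of the list, passed no comparison. In YG+ pDCs against PBS pDCs 0 of the 9 passed.

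Of 25 genes that relay or end receptor signals 24 were tested. Against PBS Sirpa+ DCs, 2 rose and 3 fell in PBS pDCs, and 2 rose and 2 fell in YG+ pDCs. The shares called over all genes tested were 11.4% in PBS pDCs and 7.16% in YG+ pDCs against PBS Sirpa+ DCs. Rac2, the Rac protein of blood cells, had 537 and 558 CPM in YG+ pDCs, 950.3 and 764 in PBS pDCs, and 55.0 and 83.7 CPM in PBS Sirpa+ DCs (log2 fold change 3.59, adjusted p = 0.00114 in PBS pDCs over PBS Sirpa+ DCs). Of the receptor kinase genes, Adrbk1, also named Grk2, passed no comparison and Grk5 was too low to test. Grk6 rose in both pDC groups (log2 fold change 2.55 in PBS pDCs, adjusted p = 0.0110), while Adrbk2, also named Grk3, fell in both (log2 fold change -3.32, adjusted p = 0.00239 in PBS pDCs, and -1.78, adjusted p = 0.0308 in YG+ pDCs). Pik3r5, a subunit of the phosphoinositide kinase downstream of G proteins, fell in both, and Prex1, an activator of Rac, fell in PBS pDCs (log2 fold change -1.82, adjusted p = 0.0285). Gnai2, the main inhibitory G protein subunit of leukocytes, and Dock8, a Cdc42 activator needed for DC migration, had the most counts and passed no comparison, nor did any of the 24 pass in YG+ pDCs against PBS pDCs. Over all these lists, 14 calls were made in PBS pDCs against PBS Sirpa+ DCs, and 4 of them, with Cd69, Rac2 and Adrbk2 among these, were kept whichever of the 6 libraries was left out. Of 10 calls in YG+ pDCs against PBS Sirpa+ DCs, 2 were kept, Cd69 being 1 of them. The others kept their direction, and their highest adjusted p with a library left out was 0.127 to 0.475 in PBS pDCs and 0.0866 to 0.362 in YG+ pDCs against PBS Sirpa+ DCs (edgeR).

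**Figure D4:**
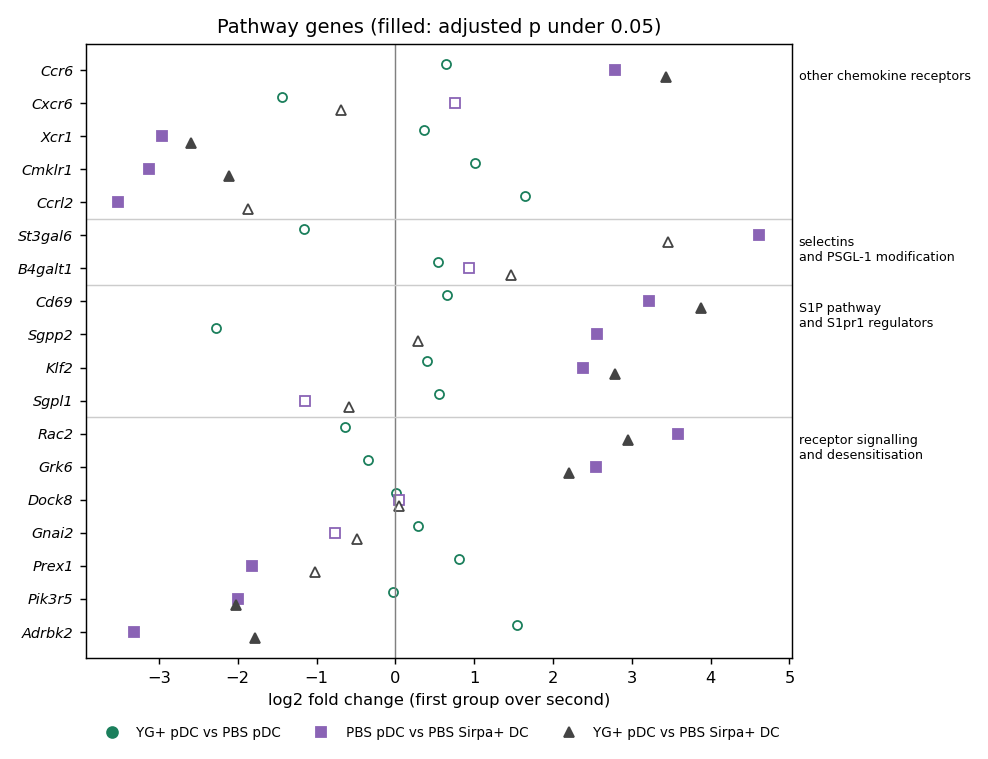
log2 fold change (first-named group over the second) of listed pathway genes in the 3 comparisons, grouped by list. Filled symbols passed an adjusted p of 0.05; Rac2 and Cd69 lie far to the right in both comparisons with PBS Sirpa+ DCs, and no circle of YG+ pDCs over PBS pDCs is filled.

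The genes whose log2 CPM ran most closely with each receptor were sought among 4125 genes of at least 50 CPM, as a description over 6 libraries that fall in 3 groups. Runx2 and Arid3a, both transcription factor genes, were most like Ccr9 (Pearson r of 0.999 and 0.998), and 150 genes reached an r of 0.95. Runx2 had 565 and 891 CPM in YG+ pDCs, 676 and 845 in PBS pDCs, and 110.0 and 89.7 CPM in PBS Sirpa+ DCs. Tbc1d9 and Bax were most like Ccr7 (0.993 and 0.992, with 99 genes at 0.95 or more), and Wdfy4 and Mllt4 most like Cx3cr1 (0.997 and 0.995, with 138 genes). Few genes followed Selplg (2 at 0.95 or more, Serf2 and Mta2), Ccr2 (3, led by H2-T23 and Lta4h) or Cxcr4 (6, led by Wdfy3 and Stat5b). Mtdh and Tsr1 were most like Cxcr3 (0.992 and 0.989), and Trim8 and Phc3 most like S1pr1 (0.997 and 0.993), both at few counts.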

How the data were processed

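Per the labels, RNA was extracted from sorted cells with TRIzol, and 5 ng entered the Ovation SoLo RNA-Seq Mouse library kit. The authors deposited 1 table of raw read counts per gene symbol for each sample, not normalised. The submitters' processing notes name bcl2fastq 2.17 and mm10, and no source used here gives the aligner, counting program, annotation or strand setting. The 5 summary lines that name no gene (97.7% to 99.5% of records) stayed out of library sizes and tests.

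Genes passing edgeR's filterByExpr were scaled by TMM (factors 0.924 to 1.09) and tested in 1 fit of group means over all 6 libraries with edgeR 4.0.16 (glmQLFit, glmQLFTest) in R 4.3.3, with Benjamini-Hochberg adjustment over all genes tested and a threshold of 0.05. The biological coefficient of variation was 33.0%. SEs were derived from the F statistic. A count of 0 allowed up to 4.21 to 19.1 CPM (3 counts). The fit was tested on simulated data drawn with the spread that edgeR estimated here, so this does not test that spread. Annotation and lengths came from GENCODE M21 (GRCm38), promoters from RefSeq. Log2 CPM used a prior count of 2. Of the listed genes, 6 were found under older symbols.

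The genes and lists were chosen with earlier results of these data known. Named were the 8 genes, the called genes of each list and its 2 genes with the most counts; some genes that this rule takes are left out here. Alternatives were DESeq2 1.42.0, limma-voom (limma 3.58.1), other scalings and filters, a fit of 4 libraries, a replicate block and each library left out. A fit without Rn45s, Malat1, Tsix and Xist and a crossed block were added after the data were seen.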

Additional observations from a re-analysis of the deposited data

How the results depend on the processing

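Depth and 2 libraries a group limit these results: low genes such as S1pr1, Cxcr3 and Cx3cr1 in pDCs rest on 0 to 18 counts a library. The unknown strand setting limits all levels as well. Gene counts were 0.842% to 3.36% of uniquely placed reads, and Tsix exceeded Xist 2.70-fold to 20.5-fold. What part of each level lay on the gene's own strand was not tested, and Ccr9 had opposite-strand exons over 19.0% of its exon length. In YG+ pDCs against PBS pDCs 0 of the genes of the set that could be tested passed under the alternatives run (7 in the fit of 4 libraries, which left out Cx3cr1, and 8 in the others), while genes called over all numbered 141 with no filter on low counts, 111 with DESeq2 and 0 to 870 with a library left out (870 without PBS pDC replicate 2), against 0 in the reported fit. In PBS pDCs against PBS Sirpa+ DCs 2 to 4 of the 8 passed (2 to 3 with a library left out, and 2 of 7, without S1pr1, in the fit of 4 libraries), and genes called numbered 580 in a fit of those 4 libraries and 214 to 1297 with a library left out, against 931. In YG+ pDCs against PBS Sirpa+ DCs 0 to 3 of the 8 passed with a library left out (0 without PBS Sirpa+ DC replicate 2, which took the Ccr9 call), and genes called numbered 894 with no filter, 1480 in the fit of 4 libraries and 69 to 1487 with a library left out, against 583. A lone library was assumed to vary like those of the other groups.

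Ccr9 and Cx3cr1 kept their direction in both comparisons with PBS Sirpa+ DCs under all alternatives. So did the other genes of the set wherever they were tested, except Ccr2. The near-zero Ccr9 difference of YG+ pDCs over PBS pDCs changed sign with library totals only (0.012) and no filter (0.063), and ran from -0.28 to 0.27 with a library left out. With a library left out, Ccr2 ran from -0.24 to 0.58 in YG+ pDCs over PBS pDCs, from -1.61 to 0.45 in PBS pDCs over PBS Sirpa+ DCs, and between -1.45 and 0.61 in YG+ pDCs over PBS Sirpa+ DCs, and S1pr1 ran from -0.78 to 0.11 in YG+ pDCs over PBS pDCs. Beyond the library left out, the cause was not tested.

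Replicate numbers are shared between groups but mark no stated pairing: deviations of same-numbered libraries correlated across genes at -0.12 between YG+ pDCs and PBS pDCs, -0.099 between YG+ pDCs and PBS Sirpa+ DCs and 0.298 between PBS pDCs and PBS Sirpa+ DCs. With the replicate block 0, 3 and 3 of the 8 genes passed, with 0, 942 and 635 genes over all, in YG+ pDCs against PBS pDCs, PBS pDCs against PBS Sirpa+ DCs and YG+ pDCs against PBS Sirpa+ DCs, Ccr7 being the added gene in the last (adjusted p = 0.0377, edgeR). With the YG+ pDC numbers crossed, a choice made after the data were seen, the block called 294, 1396 and 1221 genes in the same comparisons.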
